A study of Mus musculus with 12 samples.

Results

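The post-lanosterol enzymes are the proteins that turn lanosterol, the first sterol with closed rings, into cholesterol. They were followed as 8 genes (Cyp51, Tm7sf2, Msmo1, Nsdhl, Hsd17b7, Ebp, Sc5d and Dhcr7), found by matching the Ensembl identifiers of the count files to mouse symbols. All 8 of 8 were found among 52636 identifiers, and all 8 passed the filter on low counts that left 14433 genes. RNA was sequenced from livers of C57BL/6 mice aged 12 weeks, in 4 groups of 3 libraries: p53 ko on HFD (ko_HFD), p53 wt on HFD (wt_HFD), p53 ko on the normal diet (ko_normal) and p53 wt on the normal diet (wt_normal). HFD is a high-fat diet, ko is a knockout of the p53 gene Trp53, and wt is wild type. Whether the knockout reaches every tissue, how long the diet lasted, and the hour and feeding state at sampling are not stated. The 3 libraries of a group are not labelled as different mice, and a p-value here reflects only how far libraries differ, some of which may be technical.

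Lanosterol leaves the preceding branch of the pathway with extra methyl groups and with double bonds in the wrong places, and these enzymes of the endoplasmic reticulum membrane remove the methyl groups and move or reduce the double bonds. Most genes of the pathway are targets of SREBP, a membrane-bound transcription factor that is released when membrane sterol falls. In the liver the pathway supplies cholesterol for lipoproteins and for bile acids, and its transcripts vary with feeding and with the time of day. The study's title is about p53 control of SQLE, an enzyme upstream of lanosterol, and its groups allow ko livers to be set against wt livers on either diet.

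Promoters are shown for the 2 genes that rose with HFD (Cyp51, Msmo1), for 3 further genes that were higher in ko livers (Nsdhl, Sc5d, Dhcr7) and for Ebp, whose level moved least between libraries. The sequences come from RefSeq on build GRCm38.p6, which matched all 8 genes by symbol, and run from 250 bases before the transcription start to 50 bases after it, on the strand of the gene. Capitals mark matches on either strand to CCAAT (the box bound by NF-Y), GGGCGG (the Sp1 box) or CACGTG (an E-box).
Cyp51 promoter, chr5:4104648-4104947, minus strand: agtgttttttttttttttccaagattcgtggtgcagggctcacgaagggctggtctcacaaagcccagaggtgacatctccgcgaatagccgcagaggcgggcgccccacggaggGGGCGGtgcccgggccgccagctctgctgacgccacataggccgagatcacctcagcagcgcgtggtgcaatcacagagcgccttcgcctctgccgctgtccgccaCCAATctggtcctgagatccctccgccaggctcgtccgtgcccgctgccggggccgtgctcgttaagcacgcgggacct
Msmo1 promoter, chr8:64733529-64733828, minus strand: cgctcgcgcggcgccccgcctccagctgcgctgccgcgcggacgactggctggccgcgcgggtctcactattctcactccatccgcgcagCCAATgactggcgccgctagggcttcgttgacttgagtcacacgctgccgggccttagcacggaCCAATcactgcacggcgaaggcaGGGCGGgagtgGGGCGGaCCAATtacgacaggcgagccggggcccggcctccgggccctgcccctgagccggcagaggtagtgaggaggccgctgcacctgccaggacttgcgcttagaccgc
Nsdhl promoter, chrX:72918271-72918570, plus strand: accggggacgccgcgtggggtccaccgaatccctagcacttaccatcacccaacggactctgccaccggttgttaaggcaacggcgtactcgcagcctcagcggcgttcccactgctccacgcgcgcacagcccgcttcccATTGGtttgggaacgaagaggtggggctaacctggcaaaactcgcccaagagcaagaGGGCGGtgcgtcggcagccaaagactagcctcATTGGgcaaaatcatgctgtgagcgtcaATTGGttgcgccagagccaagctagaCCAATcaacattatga
Sc5d promoter, chr9:42264251-42264550, minus strand: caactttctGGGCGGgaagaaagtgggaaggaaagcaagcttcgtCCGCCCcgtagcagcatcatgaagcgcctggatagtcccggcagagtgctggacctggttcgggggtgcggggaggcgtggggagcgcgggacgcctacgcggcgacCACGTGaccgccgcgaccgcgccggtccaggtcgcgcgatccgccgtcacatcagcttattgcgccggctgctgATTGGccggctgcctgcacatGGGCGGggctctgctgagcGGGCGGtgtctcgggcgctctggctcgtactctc
Dhcr7 promoter, start 1 of 3, chr7:143822917-143823216, plus strand: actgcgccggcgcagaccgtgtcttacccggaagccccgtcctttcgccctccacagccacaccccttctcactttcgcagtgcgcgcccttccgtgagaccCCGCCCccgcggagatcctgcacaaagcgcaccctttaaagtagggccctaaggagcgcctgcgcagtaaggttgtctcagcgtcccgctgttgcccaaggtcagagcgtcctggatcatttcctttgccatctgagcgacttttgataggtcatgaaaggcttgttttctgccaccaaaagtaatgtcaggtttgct
Ebp promoter, chrX:8193463-8193762, minus strand: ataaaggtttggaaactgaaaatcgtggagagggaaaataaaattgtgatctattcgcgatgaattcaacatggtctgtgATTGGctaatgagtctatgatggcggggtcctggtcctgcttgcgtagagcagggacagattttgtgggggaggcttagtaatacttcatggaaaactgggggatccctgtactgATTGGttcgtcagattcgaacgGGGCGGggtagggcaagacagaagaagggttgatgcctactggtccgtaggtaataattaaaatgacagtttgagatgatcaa

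A CCAAT box was present in a window of each of the 8 genes. By window, it was in 8 of their 10, against 37.4% of all 32851 mouse promoter windows. Dhcr7 has 3 annotated starts, and its CCAAT boxes lie at start 3 only. GGGCGG was likewise present in a window of all 8 genes, and in 9 of the 10 windows, against 35.7% of all windows. An E-box was found for 3 genes, Hsd17b7, Sc5d and Dhcr7 (at start 2), in 3 of the 10 windows, against 7.15% of all windows. The sterol element core, searched as TCACNCCAC and as ATCACNCCA, where N is any base, matched none of the 10 windows of these genes and 1.24% and 0.868% of all windows. The 2 letter patterns share an overlapping core, so 1 stretch can match both. A match describes letters in the window and not a bound site, and a missing match says only that these letters are not there. All 8 genes, Ebp with the steadiest level among them, held CCAAT and GGGCGG, so these 2 boxes cannot tell the genes apart. The E-box was held by 3 of the 8, and its relation to the level differences was not tested.

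**Figure D1:**
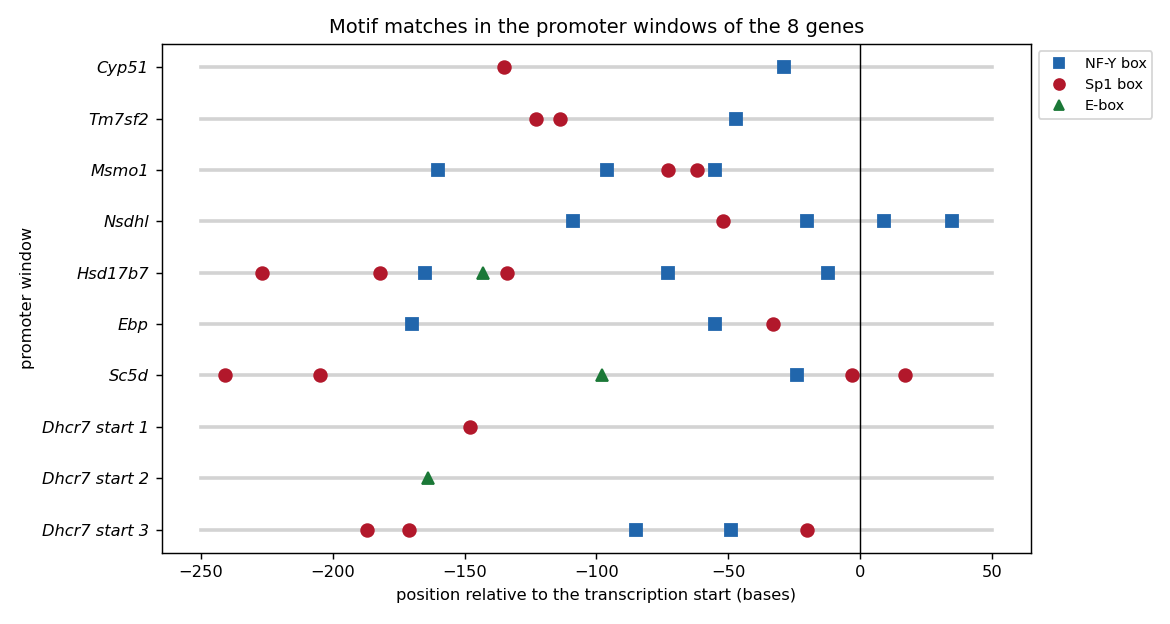
Positions of motif matches, in bases from the transcription start, in the 10 promoter windows of the 8 genes (grey lines from 250 bases before to 50 bases after the start; squares NF-Y box, circles Sp1 box, triangles E-box). Each gene has at least 1 NF-Y box and 1 Sp1 box in a window, and 3 genes have an E-box.

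The libraries held 15757330 to 18615222 counts in ko_HFD, 16751342 to 17980836 in wt_HFD, 17186008 to 20492567 in ko_normal and 15465187 to 18584789 in wt_normal. Trp53 lay lower in every ko library than in every wt library on both diets, with a log2 change of -4.33 (SE 0.39) averaged over diets (adjusted p = 0.000411 by edgeR). The 6 hepatocyte markers summed to 74153 to 84169 CPM (counts scaled to one common library size) in the ko libraries and 44159 to 58566 CPM in the wt libraries. Alb, with averages of 41884 CPM in ko_HFD, 23292 CPM in wt_HFD, 42741 CPM in ko_normal and 23207 CPM in wt_normal, and Apoa1 made up most of that sum. Of the 6 markers 4 had a change above 0 and 2, Fgb (-0.21, SE 0.23) and Cps1 (-0.18, SE 0.22), below 0 for ko against wt averaged over diets, with a median of 0.18. Library wt_normal replicate 2 stood apart, with 6247 CPM of skeletal muscle markers against at most 10.1 CPM in any other library, and the listed muscle marker Tnnc2 was at 0 in all 12. It also held 142 CPM of B cell markers, against at most 11.8 CPM elsewhere. Mitochondrially encoded genes took 14.6% of the counts of ko_normal replicate 1 and 10.3% of ko_HFD replicate 2. Y-linked Ddx3y had 514 to 761 counts and Xist 1 to 12 counts in every library, which bears on Nsdhl and Ebp, as both lie on chromosome X. In bulk tissue, fewer cells of a type and less RNA per cell cannot be told apart.

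All 8 transcripts were well counted, with 96 counts for the lowest value (Nsdhl in wt_HFD replicate 2) and 4125 for the highest (Ebp in wt_normal replicate 3). Compared per kilobase of exon, the level was highest for Ebp, with a mean of 90.5 CPM per kilobase over the 12 libraries. Sc5d at 22.0, Tm7sf2 at 19.0 and Cyp51 at 9.99 CPM per kilobase came next. Msmo1 at 5.69, Nsdhl at 4.53, Hsd17b7 at 4.49 and Dhcr7 at 3.79 CPM per kilobase were the lowest. Ebp stood clear of the rest, since its lowest library (72.0 CPM per kilobase) lay above the highest library of Sc5d (35.5 CPM per kilobase). The ranges over libraries overlapped between every other pair of neighbours in that order. Lengths are the merged exons of all annotated transcripts, so a gene with long unused exons is placed too low.

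The genes also differed in how far they ranged, given here as the ratio of the highest to the lowest library in CPM. It was 7.12 for Msmo1, 5.15 for Cyp51 and 3.69 for Nsdhl. Sc5d (2.72), Tm7sf2 (2.21), Hsd17b7 (2.20) and Dhcr7 (2.14) moved less, and Ebp ranged by a ratio of 1.42 only. The values by library follow in the order of the reactions.

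**Figure D2:**
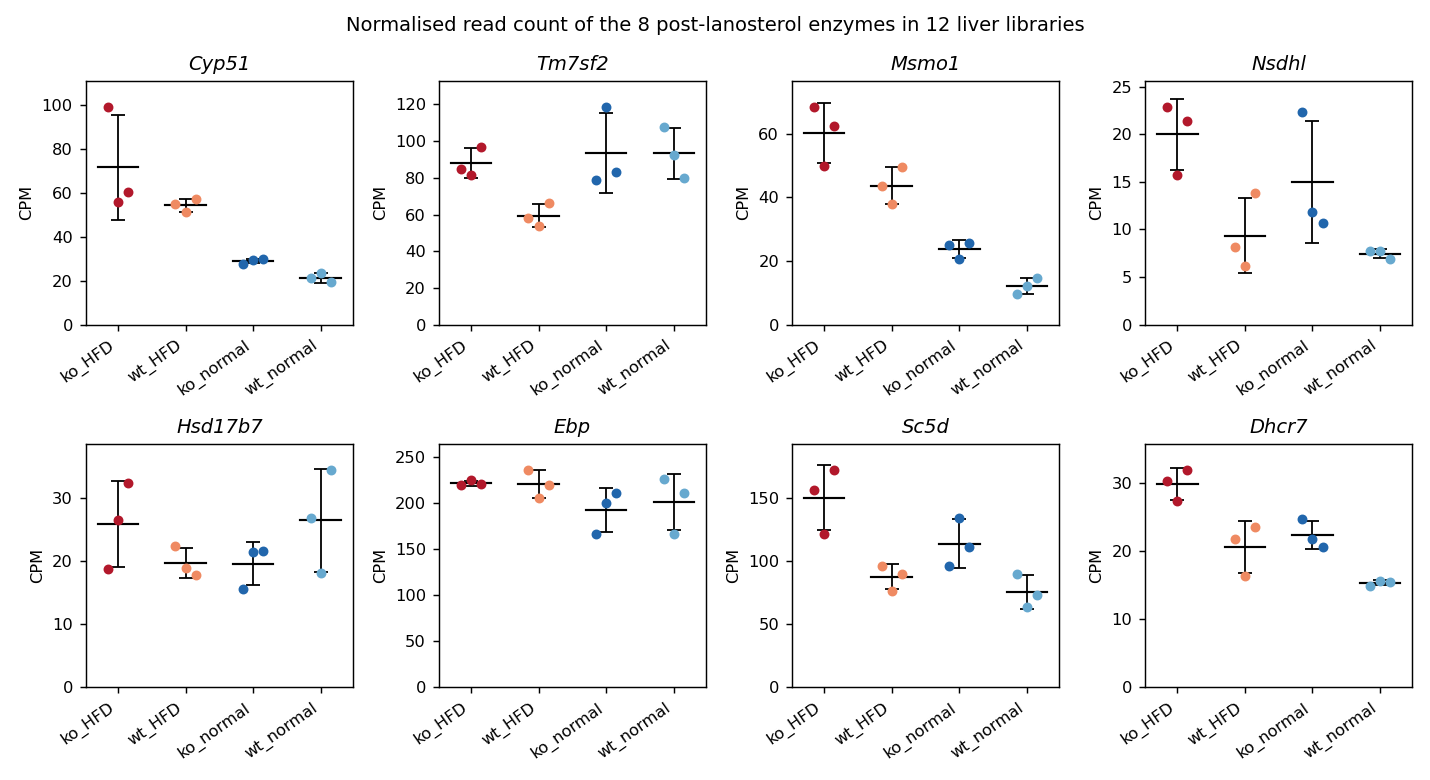
Normalised read count (CPM, linear axes from 0) of each of the 8 enzymes in the 12 libraries: points are libraries, horizontal bars group means and whiskers SD of 3 libraries. Msmo1 and Cyp51 lie higher in the HFD groups, and Nsdhl, Sc5d and Dhcr7 lie higher in the ko group of each diet. Msmo1 also lies higher in the ko group of each diet, and Dhcr7 in the HFD group of each genotype. Ebp stays between 166 and 236 CPM.

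Cyp51 (ENSMUSG00000001467, chromosome 5, 4081145 to 4104746, build GRCm38) encodes the cytochrome P450 that demethylates lanosterol, the entry step. It had 98.9, 55.6 and 60.2 CPM in ko_HFD, 55.0, 51.2 and 57.0 CPM in wt_HFD, 27.8, 29.6 and 29.7 CPM in ko_normal and 21.3, 23.7 and 19.2 CPM in wt_normal. Every HFD library lay above every library on the normal diet, and ko_HFD replicate 1 stood far above the other 2 ko_HFD libraries. Without strand, 166 of its 4415 exon bases are shared with the neighbour Akap9.

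Tm7sf2 (ENSMUSG00000024799, chromosome 19, 6062821 to 6068373) encodes a sterol reductase that acts on the product of Cyp51, a reaction that the nuclear envelope protein Lbr also carries out. Its values were 85.1, 81.4 and 97.0 CPM in ko_HFD, 58.4, 53.6 and 66.3 CPM in wt_HFD, 79.0, 119 and 83.4 CPM in ko_normal and 107, 92.3 and 80.2 CPM in wt_normal. The wt_HFD group lay below the other 3 groups, with no overlap, and those 3 overlapped. Of its 4403 exon bases, 532 are shared with Vps51, so part of its count is uncertain.

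Msmo1 (ENSMUSG00000031604, chromosome 8, 64718139 to 64733792) encodes the oxidase that starts the removal of a pair of methyl groups. It was measured at 68.4, 49.9 and 62.4 CPM in ko_HFD, 43.7, 37.8 and 49.7 CPM in wt_HFD, 25.0, 20.7 and 25.7 CPM in ko_normal and 9.60, 12.0 and 14.6 CPM in wt_normal. The 4 groups thus followed each other with no overlap, ko_HFD highest and wt_normal lowest.

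Nsdhl (ENSMUSG00000031349, chromosome X, 72918557 to 72958514), the dehydrogenase of the same demethylation, had 22.8, 15.7 and 21.4 CPM in ko_HFD and 8.12, 6.19 and 13.8 CPM in wt_HFD. On the normal diet it had 22.4, 11.9 and 10.7 CPM in ko_normal, against 7.69, 7.71 and 6.90 CPM in wt_normal. Each ko library lay above each wt library of its diet, and ko_normal replicate 1, the library richest in mitochondrial counts, was about as high as ko_HFD.

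Hsd17b7 (ENSMUSG00000026675, chromosome 1, 169949535 to 169969241) encodes the reductase that completes each demethylation round. Its level was 18.7, 26.6 and 32.4 CPM in ko_HFD, 22.4, 18.9 and 17.8 CPM in wt_HFD, 15.6, 21.4 and 21.7 CPM in ko_normal and 26.8, 18.1 and 34.5 CPM in wt_normal. All neighbouring groups overlapped, and the spread within ko_HFD and wt_normal was wider than the differences between group means.

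Ebp (ENSMUSG00000031168, chromosome X, 8185329 to 8193512), the isomerase that shifts a ring double bond, had 219, 225 and 221 CPM in ko_HFD, 236, 206 and 219 CPM in wt_HFD, 166, 201 and 211 CPM in ko_normal and 227, 167 and 211 CPM in wt_normal. The groups overlapped except ko_HFD, which lay above ko_normal.

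Sc5d (ENSMUSG00000032018, chromosome 9, 42251595 to 42264256) encodes the desaturase that follows. It had 157, 122 and 173 CPM in ko_HFD, 96.3, 76.9 and 89.7 CPM in wt_HFD, 96.0, 135 and 111 CPM in ko_normal and 90.4, 63.4 and 73.5 CPM in wt_normal. On each diet all 3 ko libraries lay above all 3 wt libraries, while the 2 diets overlapped within each genotype.

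Dhcr7 (ENSMUSG00000058454, chromosome 7, 143823145 to 143848410), the reductase that makes cholesterol from 7-dehydrocholesterol, had 30.3, 27.3 and 31.9 CPM in ko_HFD, 21.8, 16.4 and 23.6 CPM in wt_HFD, 24.6, 21.8 and 20.6 CPM in ko_normal and 14.9, 15.6 and 15.5 CPM in wt_normal. The ko_HFD group lay above all others and wt_normal below all others, with ko_normal and wt_HFD overlapping between them.

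Loss of p53 was compared first, averaged over both diets. Msmo1, Nsdhl, Sc5d and Dhcr7 were higher in ko than in wt livers. The log2 change was 0.72 for Msmo1 (SE 0.13), 1.05 for Nsdhl (SE 0.23), 0.68 for Sc5d (SE 0.14) and 0.54 for Dhcr7 (SE 0.11), which are folds of 1.65, 2.07, 1.61 and 1.45. Cyp51 (0.42, SE 0.14) and Tm7sf2 (0.29, SE 0.13) did not pass, and Hsd17b7 and Ebp stayed near 0.

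Each difference was tested with edgeR's quasi-likelihood F-test in 1 fit of all 12 libraries, two-sided, with Benjamini-Hochberg adjustment over 14433 genes and a call at adjusted p under 0.05. In this comparison 4 of the 8 enzymes were called higher and none lower, against 0.79% of all genes called higher and 0.374% called lower. Adjusted p was 0.0294 for Msmo1, 0.0388 for Sc5d, 0.0421 for Dhcr7, 0.0467 for Nsdhl, 0.141 for Cyp51 and 0.267 for Tm7sf2. The 95% interval ran from -0.40 to 0.37 for Hsd17b7 and from -0.28 to 0.22 for Ebp, so larger changes in either direction lie outside both. The median over the 8 genes was 0.48, against -0.01 over all genes tested.

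These 4 calls lie close to the threshold. Msmo1 was no longer called without ko_HFD replicate 3, wt_HFD replicate 2, ko_normal replicate 1 or 3, or wt_normal replicate 1 or 2 (edgeR adjusted p of 0.0545 to 0.0891). Sc5d lost its call without ko_HFD replicate 1 or 3, wt_HFD replicate 2 or 3, ko_normal replicate 2 or 3, or wt_normal replicate 2 or 3 (0.0609 to 0.0927). The call of Nsdhl ended without any 1 library other than wt_HFD replicate 3 (0.0515 to 0.0995), and that of Dhcr7 without any 1 library other than wt_HFD replicate 1 (0.0564 to 0.0946). The sizes held more closely, at 0.65 to 0.80 for Msmo1, 0.62 to 0.76 for Sc5d, 0.85 to 1.24 for Nsdhl and 0.48 to 0.59 for Dhcr7 over the 12 omissions. Without wt_normal replicate 2, the library with muscle markers, none of the 4 was called, and the changes were 0.73 for Msmo1, 1.07 for Nsdhl, 0.64 for Sc5d and 0.55 for Dhcr7. With library totals in place of TMM scaling, edgeR called 1 of the 4, Msmo1 (adjusted p = 0.0498), and 126 of the 14433 genes. The Wald test of DESeq2 called all 4, among 860 of the 14433 genes, where edgeR with TMM scaling called 168.

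**Figure D3:**
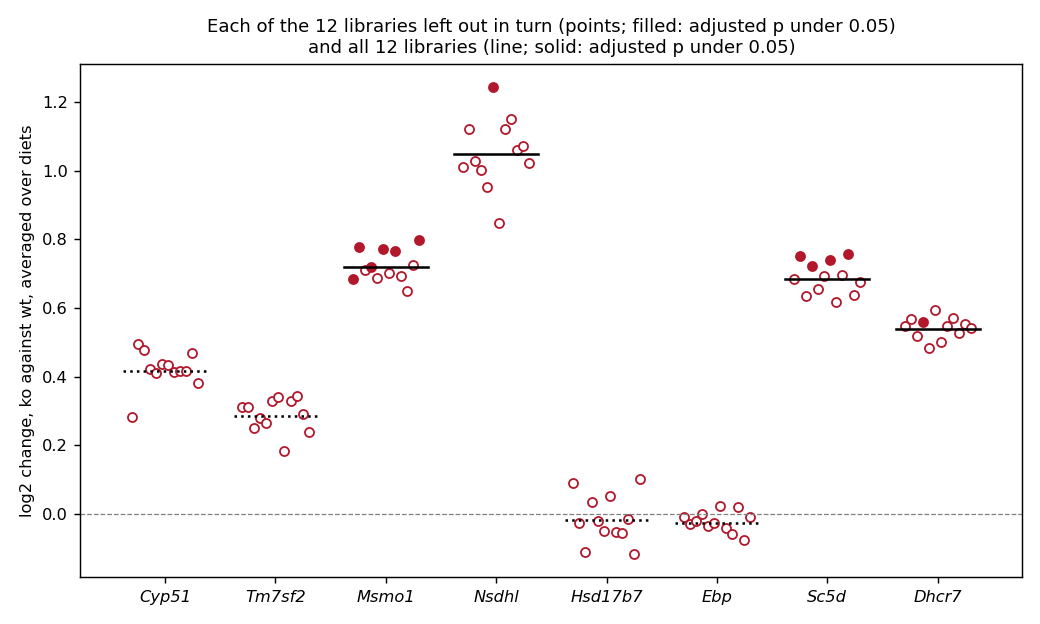
Fitted log2 change, ko against wt averaged over diets, of each enzyme with each of the 12 libraries left out in turn (points, filled where adjusted p was under 0.05) and with all 12 libraries (lines, solid where called). Msmo1, Nsdhl, Sc5d and Dhcr7 stay above 0.48 in every omission, most of which end the calls, while Hsd17b7 and Ebp fall on both sides of 0.

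On the normal diet alone, no enzyme passed edgeR's test for ko_normal against wt_normal, where 0.208% of all genes were called. At an unadjusted p under 0.05, 5 of the 8 were higher, against 7.31% of all genes. The largest differences were 1.01 for Nsdhl (SE 0.32, adjusted p = 0.168) and 0.98 for Msmo1 (SE 0.19, adjusted p = 0.0606). Sc5d had 0.59 (SE 0.20), Dhcr7 0.54 (SE 0.16) and Cyp51 0.44 (SE 0.20). In these 5 genes every ko_normal library lay above every wt_normal library, against 11.4% of all genes with that order. Nsdhl had 0.60 without ko_normal replicate 1, and Msmo1 was called without wt_HFD replicate 2 (adjusted p = 0.0459). By the Wald test of DESeq2, 1 of the 8, Msmo1, was called, among 529 of the 14433 genes.

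On HFD, ko against wt gave log2 changes of 1.09 for Nsdhl (SE 0.32), 0.78 for Sc5d (SE 0.20), 0.56 for Tm7sf2 (SE 0.19), 0.53 for Dhcr7 (SE 0.16) and 0.46 for Msmo1 (SE 0.19). These 5 genes had every ko_HFD library above every wt_HFD library, against 6.7% of all genes. By edgeR none of the 8 was called, where 0.0693% of all genes were, and 5 were higher at an unadjusted p under 0.05, as were 4.5% of all genes. The smallest adjusted p was 0.307, for Sc5d, which DESeq2 called at 0.0321, among 95 of the 14433 genes. Cyp51 overlapped between ko_HFD and wt_HFD, with a log2 change of 0.40 (SE 0.20) that was 0.09 without ko_HFD replicate 1.

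HFD was compared with the normal diet in the same way. Cyp51 and Msmo1 rose on HFD, averaged over both genotypes, by log2 changes of 1.32 (SE 0.14) and 1.60 (SE 0.14), folds of 2.50 and 3.02. Both passed edgeR's test, with adjusted p = 0.00123 for Cyp51 and 0.000171 for Msmo1, and 0.582% of all genes were called higher. Msmo1 had the third smallest and Cyp51 the sixth smallest p of the 14433 genes. Both kept their calls in all 12 omissions of a library, with adjusted p of at most 0.0093 and 0.00129. Dhcr7 (0.42, SE 0.11, adjusted p = 0.0961), Nsdhl (0.38, SE 0.23), Sc5d (0.31, SE 0.14) and Ebp (0.17, SE 0.12) did not pass. DESeq2 also called Dhcr7 (adjusted p = 0.0215), among 509 of the 14433 genes that it called higher. Tm7sf2 had -0.37 (SE 0.13, adjusted p = 0.174) and Hsd17b7 -0.01 (SE 0.18).

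In wt livers Msmo1 was 3.61-fold higher on HFD (edgeR adjusted p = 0.0014). Its level was 43.7 ± 5.95 CPM in wt_HFD and 12.1 ± 2.50 CPM in wt_normal (SD, n = 3 each). Cyp51 was 2.54-fold higher (edgeR adjusted p = 0.0196), at 54.4 ± 2.97 CPM in wt_HFD and 21.4 ± 2.25 CPM in wt_normal (n = 3 each). The other 6 enzymes were not called, while 0.43% of all genes were called higher. Cyp51 lost its call without wt_HFD replicate 1 (1.34, adjusted p = 0.0519) or wt_normal replicate 3 (1.27, adjusted p = 0.083). Tm7sf2 had a log2 change of -0.65 (SE 0.19, adjusted p = 0.118), with every wt_HFD library below every wt_normal library, as in 10.7% of all genes. DESeq2 called Tm7sf2 lower (adjusted p = 0.0376), among 251 of the 14433 genes that it called lower. Cyp51, Msmo1 and Dhcr7 had every wt_HFD library above every wt_normal library, as did 11.2% of all genes.

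In ko livers the same contrast gave 1.34 for Msmo1 (SE 0.19) and 1.30 for Cyp51 (SE 0.20), both at edgeR adjusted p = 0.0713. No gene of the 14433 passed in this contrast, a share of 0%, with 812 at an unadjusted p under 0.05 and 37 called by DESeq2. Of the 8 enzymes 3 were higher at an unadjusted p under 0.05, against 2.64% of all genes. Msmo1 had the smallest p of all genes and Cyp51 the fourth smallest. Both were called without ko_HFD replicate 2 (adjusted p = 0.0395) and by DESeq2. The other values above 0 were 0.42 for Nsdhl (SE 0.32), 0.42 for Dhcr7 (SE 0.16), 0.40 for Hsd17b7 (SE 0.25), 0.40 for Sc5d (SE 0.20) and 0.20 for Ebp (SE 0.16), all far from the threshold. Every ko_HFD library lay above every ko_normal library for Cyp51, Msmo1, Ebp and Dhcr7, as for 5.45% of all genes. Tm7sf2 had -0.09 (SE 0.19).

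**Figure D4:**
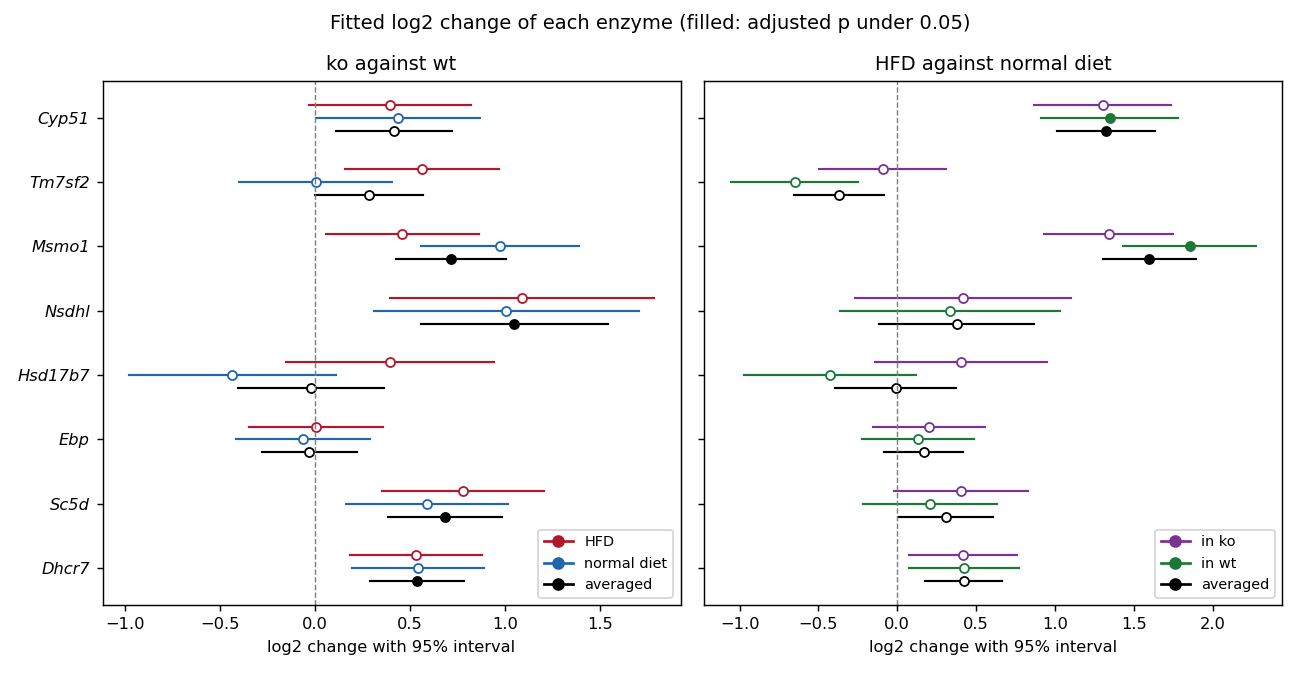
Fitted log2 change with 95% interval of each enzyme for ko against wt (left) and HFD against the normal diet (right), by diet or genotype and averaged; filled points have adjusted p under 0.05. The genotype change is called for Msmo1, Nsdhl, Sc5d and Dhcr7 on average, and the diet change for Cyp51 and Msmo1.

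Whether the effect of p53 loss differed between diets was tested as the ko effect on HFD minus that on the normal diet. None of the 8 enzymes and none of the 14433 genes was called by edgeR, with 725 genes at an unadjusted p under 0.05 and 19 genes, none of them an enzyme of this set, called by DESeq2. Of the 8, 1 was higher at an unadjusted p under 0.05, against 2.58% of all genes. That was Hsd17b7, at 0.83 (SE 0.36, unadjusted p = 0.0375, adjusted p = 0.968), with ko against wt at 0.39 on HFD and -0.43 on the normal diet. Tm7sf2 had 0.56 (SE 0.26) and Msmo1 -0.51 (SE 0.27). For Nsdhl, Sc5d, Dhcr7 and Cyp51 the difference was 0.08, 0.19, -0.01 and -0.04, with 95% intervals that reach from -0.90 to 1.06 for Nsdhl and from -0.49 to 0.48 for Dhcr7.

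**Figure D5:**
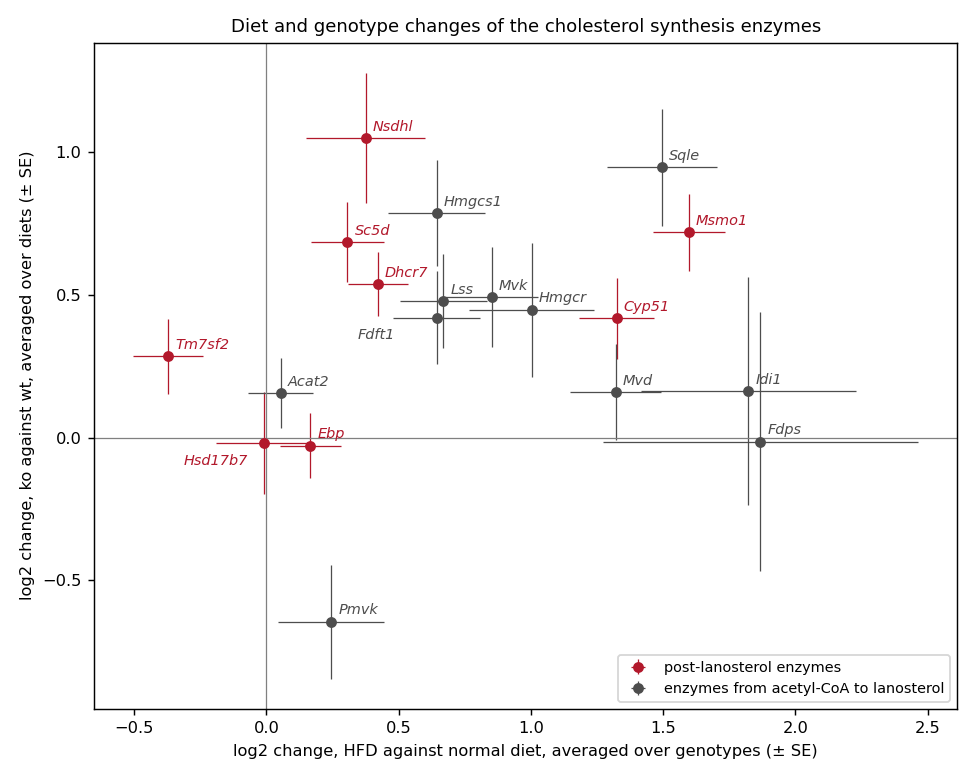
Log2 change of ko against wt averaged over diets (vertical, ± SE) against that of HFD against the normal diet averaged over genotypes (horizontal, ± SE), for the 8 post-lanosterol enzymes (red) and the 11 enzymes from acetyl-CoA to lanosterol (grey); both axes come from the same 12 libraries. Msmo1 (1.60 and 0.72) and Cyp51 (1.32 and 0.42) lie to the right with Sqle (1.50 and 0.95). Also to the right, but near 0 in height, lie Fdps (1.87 and -0.01), Idi1 (1.82 and 0.16) and Mvd (1.32 and 0.16). Nsdhl, Sc5d and Dhcr7 lie high and further left, and Ebp and Hsd17b7 lie near the origin.

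The 8 enzymes did not move as 1 block across the libraries. Over the 28 pairs, Pearson's r of log2 CPM across the 12 libraries had a median of 0.39 and ran from -0.43 (Tm7sf2 with Msmo1) to 0.94 (Cyp51 with Msmo1). Nsdhl and Dhcr7 followed each other most closely after that pair, with r = 0.91. With group means taken out, the median fell to 0.17 over all 28 pairs, and Nsdhl with Dhcr7 had the highest value, 0.85, while Cyp51 with Msmo1 had 0.34. Tm7sf2, with a median r of 0.06 against the other 7, and Hsd17b7, with -0.05, were least like the rest. These correlations describe 12 libraries that share 4 groups and 1 scaling.

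Of genes outside the set, those most like the mean of the 8 standardised enzyme profiles were Gpx6, Slc26a1, Dcun1d1, Hmgcs1, Lect2, Inhba, Pik3r1 and Hcn3, with Pearson's r of 0.90 to 0.88 and Spearman's rho of 0.76 to 0.95 over the 12 libraries. Hmgcs1, the enzyme that makes the precursor of mevalonate, was the fourth of 14425 genes (r = 0.89, 0.28 within groups). Srebf2, which encodes an SREBP, was ninth (r = 0.88, 0.35 within groups) and Sqle thirteenth (r = 0.86, 0.60 within groups). Gpx6 had a mean of 0.492 CPM, so its values rest on few counts.

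The rest of the pathway gives the setting for these values. Of 11 enzymes from acetyl-CoA to lanosterol, 3 rose on HFD averaged over genotypes, Sqle (1.50, SE 0.21), Mvd (1.32, SE 0.17) and Mvk (0.85, SE 0.17), with a list median of 0.85 against 0.34 for the 8 enzymes after lanosterol. For ko against wt averaged over diets, 1 of the 11, Sqle, was higher (0.95, SE 0.21, edgeR adjusted p = 0.0474), with a list median of 0.42 against 0.48 for the 8. Of these 11 changes 9 lay above 0 and 2 below, the lowest that of Pmvk (-0.64, SE 0.20, edgeR adjusted p = 0.122). No difference between the 2 lists was tested. Among 9 other enzymes and helpers of the late steps, none was called in any of the 7 comparisons. Cyb5a, the cytochrome that donates electrons to the oxidase and the desaturase, had 0.56 (SE 0.15, adjusted p = 0.0901) for ko against wt averaged over diets. Lbr, the other sterol reductase, had -0.73 (SE 0.34, adjusted p = 0.267) in the same comparison. Ebpl, a relative of Ebp, had 0.50 (SE 0.15, adjusted p = 0.117) on HFD averaged over genotypes, and Erg28, a scaffold of the demethylation complex in yeast, had 0.30 (SE 0.12, adjusted p = 0.221).

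Of 10 tested genes of SREBP regulation and sterol uptake, Srebf1 (1.30, SE 0.22), Stard4 (0.78, SE 0.16) and Insig1 (0.60, SE 0.12) were higher in ko than in wt livers averaged over diets. Stard4, a sterol carrier, also rose on HFD averaged over genotypes, by 1.03 (SE 0.16). Insig1, which retains SREBP in the endoplasmic reticulum, was at 90.6, 93.7 and 87.8 CPM in ko_HFD, 77.7, 70.0 and 94.0 CPM in wt_HFD, 111, 85.6 and 77.5 CPM in ko_normal and 48.3, 46.6 and 39.7 CPM in wt_normal. It was higher in ko_normal than in wt_normal (1.03, SE 0.17, edgeR adjusted p = 0.0446), while ko_HFD and wt_HFD overlapped (0.17, SE 0.17, adjusted p = 0.811), and the difference between these 2 changes did not pass (-0.86, SE 0.24, adjusted p = 0.828). None of 7 targets of the sterol receptor LXR was called in any comparison.

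Other markers moved with genotype and with diet as well, and their part in the differences of the 8 enzymes was not tested. Of 13 clock genes, Per2 (1.42, SE 0.26) and Dbp (2.76, SE 0.58) were higher and Arntl (-1.90, SE 0.35) was lower in ko livers averaged over diets. At an unadjusted p under 0.05 by edgeR, 8 of the 13 were higher and 3 lower for ko against wt on the normal diet, with 2176 of the 14433 genes under that p. On HFD 1 was higher and 1 lower, with 1278 of the 14433 genes under that p. For HFD against the normal diet, 3 were higher and 3 lower in wt livers, with 2453 of the 14433 genes under that p. In ko livers 0 were higher and 1 lower, with 812 of the 14433 genes under that p. The clock genes summed to 600.2 to 664 CPM in ko_HFD, 356 to 594 CPM in wt_HFD, 562 to 1043 CPM in ko_normal and 261 to 397 CPM in wt_normal. These sums add genes that moved in opposite directions. All 6 endothelial markers had a negative change for ko against wt averaged over diets, 1 of them called, with sums of 143 to 236 CPM in ko_HFD, 197 to 283 CPM in wt_HFD, 154 to 217 CPM in ko_normal and 289 to 329 CPM in wt_normal. All 6 stellate cell markers were likewise negative, none called. Their sum was 772 CPM in wt_normal replicate 2, the library with muscle markers, against 133 and 182 CPM in the other wt_normal libraries. Des, 1 of the 6, held up to 547 CPM in wt_normal, 70.5 CPM in wt_HFD, 10.6 CPM in ko_normal and 8.40 CPM in ko_HFD. Of the 6 hepatocyte markers 1 was called higher in ko livers, and 1 was called lower on HFD averaged over genotypes. For HFD against the normal diet in wt livers, all 6 endothelial and all 6 stellate cell markers were negative, none called. In ko livers 3 of the 6 endothelial and 2 of the 6 stellate cell markers were negative.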

How the data were processed

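Liver RNA was measured by sequencing in 12 libraries in 4 groups of 3. The authors deposited raw read counts per Ensembl gene, 1 column per library, per the file headers. Per the submitters' processing notes CASAVA 1.8 and Bowtie 0.12.2 were used and the builds mm8 and mm9 are named; counter, annotation and strand setting are unstated. Symbols matched 52403 of 52636 identifiers; positions and exon lengths are those of GENCODE M21 (GRCm38), not the authors' coordinates.

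Groups and replicate numbers came from the labels. Replicates of a group differed by 39.5 to 199 chi-square units per degree of freedom, far above counting error. Counts as deposited were filtered with filterByExpr, scaled with TMM factors and fitted with edgeR 4.0.16 in 1 model of the 4 groups (8 residual degrees of freedom), which gave the log2 changes, SEs and Benjamini-Hochberg adjusted p-values of 7 comparisons. CPM are counts scaled to a common size by the filtered, TMM-scaled totals; log2 CPM for correlations used a prior count of 2. Counts behind the 8 enzymes ran from 96 to 4125 per library. The fit was tested on simulated data, in which no library stood apart as wt_normal replicate 2 does. No result here rests on that test. The 8 enzymes, the other gene lists and the motifs were chosen with earlier results of these data known. Named genes are the 8 enzymes, Trp53, called genes of the lists or up to 2 per comparison with the smallest p, and the 8 genes most like the enzymes. Lbr, Srebf2, Pmvk, Fdps, Idi1, Ddx3y, Xist, Tnnc2, Des, Alb, Apoa1, Fgb and Cps1 were named after their values were seen. Faxdc2 had no matched identifier and Npc1l1 did not pass the filter. The values of 1 listed gene are not reported here. Alternatives were another set of libraries, a replicate block, each library left out, other scalings, other filters, and the Wald test of DESeq2 1.42.0.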

Additional observations from a re-analysis of the deposited data

How the results depend on the processing

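The 8 enzymes in 7 comparisons gave 56 log2 changes and 1040 recomputed values. Of these 939 kept direction and call, 44 lost the call, 13 gained it and 44 changed sign, 42 of them where the change was under 0.1. Omitting each library in turn gave 0 to 1 enzymes called for ko against wt on the normal diet (0 with all libraries), 1 to 2 for HFD in wt (2), 0 to 2 for HFD in ko (0) and 0 to 3 for ko against wt averaged (4). Counts over all genes ran from 3 to 84 for ko against wt on the normal diet (30), 2 to 14 on HFD (10), 9 to 131 for HFD in wt (100), 0 to 6 for HFD in ko (0), 0 to 1 for the difference between the ko effects (0), 45 to 254 for ko against wt averaged (168) and 45 to 272 for HFD averaged (150).

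In the same order of comparisons, the fit of only the groups compared called 96, 6, 34 and 2 genes in the 4 comparisons of 2 groups. Without a filter on low counts it was 648, 51, 696, 21, 13, 644 and 489 genes, with 1 enzyme for ko against wt on the normal diet and 2 for HFD in ko; higher and lower calls were then 224 and 424, not 21 and 9, for ko against wt on the normal diet, 314 and 382, not 62 and 38, for HFD in wt, and 315 and 329, not 114 and 54, for ko against wt averaged. DESeq2 called 529, 95, 665, 37, 19, 860 and 807 genes, with 1 enzyme for ko against wt on each diet and 2 for HFD in ko. Library totals without TMM gave 18 and 16 genes for ko against wt on the normal diet and on HFD, and 1 enzyme, not 4, for ko against wt averaged; they moved the median of all genes to -0.16 for ko against wt on the normal diet and -0.21 for HFD in wt. Higher and lower calls were then 34 and 64, not 62 and 38, for HFD in wt, 54 and 103, not 84 and 66, for HFD averaged, 60 and 66, not 114 and 54, for ko against wt averaged, and 12 and 4, not 6 and 4, for ko against wt on HFD (11 and 4 with DESeq2 size factors). The replicate block gave 1 enzyme for ko against wt on the normal diet and 1 for ko against wt averaged. Replicate numbers were not shown to pair libraries: 4 of 18 same-numbered correlations of deviations exceeded 0.1 (-0.21 to 0.33). The causes of these changes were not tested.

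Signs changed under library totals for Tm7sf2, ko against wt on the normal diet (-0.14), Ebp, HFD in wt (-0.042), and the difference between ko effects of Cyp51 (0.11) and Dhcr7 (0.15), where the block gave 0.000753. Hsd17b7, HFD averaged, was 0.000677 with the block, 0.00179 with DESeq2 size factors and 0.00178 by DESeq2. Omitting libraries gave both signs for ko against wt on the normal diet of Tm7sf2 (-0.19 to 0.12) and Ebp (-0.16 to 0.036), on HFD of Ebp (-0.042 to 0.060) and averaged of Hsd17b7 (-0.12 to 0.10) and Ebp (-0.077 to 0.022). It did so for HFD in wt of Nsdhl (-0.054 to 0.59), HFD in ko of Tm7sf2 (-0.20 to 0.12) and HFD averaged of Hsd17b7 (-0.11 to 0.11). Differences between ko effects ran from -0.38 to 0.11 for Cyp51, -0.18 to 0.49 for Nsdhl, -0.028 to 0.16 for Ebp and -0.18 to 0.10 for Dhcr7. By the median level per kilobase Hsd17b7 and Nsdhl exchanged places 6 and 7. In the 250 bases before the start the same number of enzymes held each motif. There 8 of their 10 windows held CCAAT, against 33.8% of all windows, and 9 held GGGCGG, against 32.7%.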

Other observations

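With group means taken out, the 8 genes that followed the mean profile of the enzymes most closely included none of the listed genes of sterol synthesis or its regulation. Hhex, a hepatic transcription factor gene, had r = 0.97 over the 12 deviations, Bend7 0.96 and Cebpg 0.95. Over all 12 libraries, group differences included, these 3 genes had r = -0.11, -0.28 and 0.34. Hmgcs1, the fourth over all libraries, had 0.28 within groups. The values of Hhex, Bend7 and Cebpg are the highest of 14425 values over 12 libraries and carry no test.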
